A study of Danio rerio with 7 samples.

Results

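The embryonic globin and erythrocyte genes are 10 genes of the red blood cell: 3 alpha globins (hbae1.1, hbae3, hbae5), 4 beta globins (hbbe1.1, hbbe1.3, hbbe2, hbbe3), the heme synthesis gene alas2, the membrane gene slc4a1a and the transcription factor gene gata1a. They were chosen by name from the 30421 gene rows of the deposited table. Of the 10, 9 have a row under their own symbol. The remaining 1, hbae1.1, was read from the row hbae1, its synonym in the RefSeq gene table of GRCz12tu. The libraries were made from RNA of pooled zebrafish heads, taken 5 days after fertilization (5 dpf). The 3 hm41 libraries (69, 70 and 71) came from larvae carrying the hm41 mutation, with no statement of whether 1 or both copies were mutant, and the 3 WT libraries (66, 67 and 68) from wild type larvae. The design text describes mutants and siblings of a line with a leaky phenotype, traced to spock1 on chromosome 14. Each library is a pool, the number of larvae per pool is not given in the sources used here, and p-values measure only the spread between these pools. The series also holds a single-cell library of mixed genotype, which was not analysed here.

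In fish, as in other vertebrates, hemoglobin is built from alpha and beta globin chains that each hold a heme. Zebrafish carry a globin cluster on chromosome 3, with embryonic and larval genes beside adult ones, and a smaller cluster on chromosome 12. At the larval stage circulating red cells come from the early embryonic wave of blood formation, are nucleated and still hold globin mRNA. Erythroid cells take their heme from a pathway that starts with alas2, and gata1a directs the erythroid program. In bulk RNA, fewer red cells and less RNA per red cell cannot be told apart.

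The libraries held 33776039 to 70534914 counts in hm41 and 35073549 to 114604280 in WT, of which 93.6% to 95.7% lay in 8 rows. Outside these rows 2142623 to 4509187 counts were left in hm41 and 1664845 to 4959749 in WT, and WT 67 was the shallowest. On the first principal component, with 34.1% of the variance, WT 67 scored 34.2 and the other libraries -25.4 to 15.5, and on the second, with 22.8%, hm41 69 scored 33.2 and the others -14.2 to 4.64. Levels are in CPM (counts per 1000000 counts) of library totals scaled by TMM (trimmed mean of M-values) factors. The 8 rows make all CPM values small. The row LOC110438492 split the libraries across genotypes, with 2589780 to 5141165 counts in hm41 70, hm41 71 and WT 68 and at most 6 in the others. The mutated gene spock1 had 86, 135 and 56 counts in hm41 69, 70 and 71, against 254, 61 and 166 in WT 66, 67 and 68, and a log2 fold change of hm41 over WT of -0.38, with a 95% interval of -0.87 to 0.098. Markers of neurons, photoreceptors, lens and cartilage were detected for 10 of 10 genes, with a summed level of 392 to 459 CPM in hm41 and 274 to 432 CPM in WT. Markers of liver and pancreas, organs outside the head, were also detected for 6 of 6 genes, at 103 to 177 CPM in hm41 and 83.9 to 97.0 CPM in WT. Without the liver gene apoa2 this last sum was 43.3 to 85.3 CPM in hm41 and 51.1 to 52.2 CPM in WT, so the groups overlapped. EdgeR called 0 of these 10 and 6 genes, where 0.0571% of all tested genes were called. At an unadjusted p under 0.05, 4 and 1 were higher in hm41, against 5.35% of all tested genes. DESeq2 called 2 and 1, all higher in hm41, and over all genes it called 98 higher of 2085 with an adjusted p. The part of these tissues in the levels of the blood genes was not tested.

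All globin rows together held 480, 706 and 407 counts in hm41 69, 70 and 71, against 1036, 248 and 955 in WT 66, 67 and 68. These were 0.0157% to 0.0224% of the counts outside the 8 abundant rows in hm41 and 0.0149% to 0.0209% in WT. Part of these reads could not be given to 1 gene. Embryonic globin genes of the chromosome 3 cluster alternate as alpha and beta pairs of near-identical copies, and the deposited values are estimates that divide shared reads. The rows hbbe1.1, hbbe1.2 and hbbe1.3 were not whole numbers, yet their sum was whole in each of the 6 libraries (tolerance 0.02 counts). The same held for the alpha rows hbae1, hbae1.3 and LOC100334599. This last row was found after values were seen: it was the 1 row of the table that completed hbae1 and hbae1.3 to a whole number in all 6 libraries. Its number is the gene ID that RefSeq now lists as hbae1.3.

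The division among the alpha copies differed from library to library. The hbae1 row, read here as hbae1.1, took 3.8%, 30.2% and 19.8% of the summed alpha copies in hm41 69, 70 and 71, against 14.0% in WT 66 and 0% in WT 67 and WT 68. LOC100334599 took 43.3%, 52.1% and 58.2% in hm41 69, 70 and 71, against 42.9%, 77.8% and 71.8% in WT 66, 67 and 68. Among the beta copies hbbe1.1 took most counts, with 61.7%, 81.2% and 73.0% in hm41 69, 70 and 71, against 74.3%, 52.2% and 77.4% in WT 66, 67 and 68. The share of hbbe1.3 was between 5.7% and 21.9% in hm41 and between 13.6% and 32.8% in WT. Values of hbae1.1, hbbe1.1 and hbbe1.3 taken alone are therefore uncertain, and each set was also counted as its sum.

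**Figure D1:**
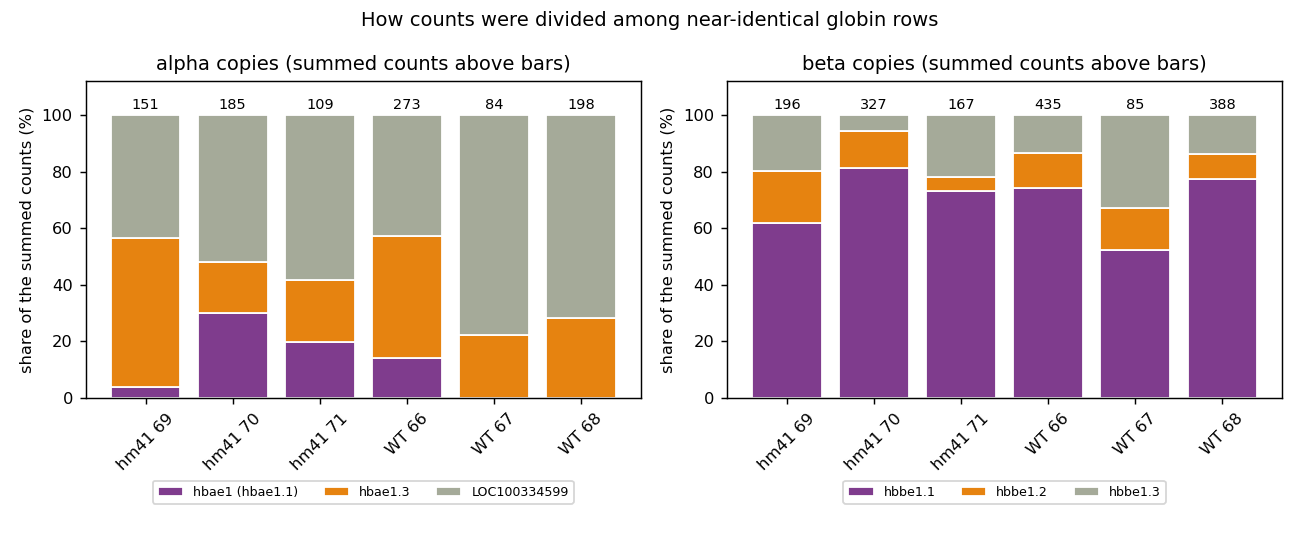
Share of the summed counts (%) that each of 3 alpha rows (left) and 3 beta rows (right) received, per library, with the summed counts above each bar. The hbae1 row received no share in WT 67 and WT 68 and 30.2% in hm41 70, while hbbe1.1 held 52.2% of the beta counts or more in every library.

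Among the alpha chains, hbae1.1 had 0.153, 0.691 and 0.537 CPM in hm41 69, 70 and 71, against 0.417 CPM in WT 66 and a listed 0 in WT 67 and WT 68. The groups overlapped, since hm41 69 lay below WT 66. Its log2 fold change of 1.53 had an interval of -1.71 to 4.76 (adjusted p = 0.757, quasi-likelihood F-test of edgeR, adjusted by the Benjamini-Hochberg method). With WT 66 left out, both remaining WT libraries were at 0 and the gene passed the threshold (log2 fold change 7.72, adjusted p = 0.0483, edgeR), with adjusted p-values of 0.0483 to 0.892 over the 6 fits that leave out 1 library. A fitted value against libraries at 0 rests on the prior count and is no bound on the fold. Summed, the 3 alpha copies had 3.86, 2.28 and 2.66 CPM in hm41 69, 70 and 71, against 2.99, 2.77 and 2.33 CPM in WT 66, 67 and 68. The summed copies overlapped fully, with a log2 fold change of 0.11 (95% interval -0.34 to 0.55, adjusted p = 0.906 by edgeR) and one of 0.21 without WT 66.

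The alpha gene hbae3, at the end of the same cluster, had whole counts in every library. Its level was 1.69, 1.39 and 2.10 CPM in hm41 69, 70 and 71, against 1.78, 0.693 and 2.20 CPM in WT 66, 67 and 68. WT 67 lay below all other libraries, with 21 counts (exact 95% Poisson interval 13 to 32.1, counting error only), and the groups overlapped. The log2 fold change was 0.069 (95% interval -0.58 to 0.72), and without WT 67 it was -0.22. The alpha gene hbae5 of the chromosome 12 cluster had 6, 2 and 3 counts in hm41 69, 70 and 71, against 18, 8 and 6 in WT 66, 67 and 68, too few to enter the test. In CPM it had 0.153, 0.0247 and 0.0732 in hm41 69, 70 and 71, against 0.197, 0.264 and 0.0706 in WT 66, 67 and 68, so the groups overlapped through WT 68. Over the groups, 11 counts stood against 32, a ratio of 0.441 on TMM-scaled library totals (95% interval 0.200 to 0.897). The interval covers counting error only and not the spread between pools.

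Among the beta chains, hbbe1.1 had 3.09, 3.27 and 2.98 CPM in hm41 69, 70 and 71, against 3.54, 1.45 and 3.53 CPM in WT 66, 67 and 68. The hm41 libraries lay close together and between the WT ones, of which WT 67 was low. The log2 fold change was 0.089 (95% interval -0.44 to 0.62), and without WT 67 it was -0.18. Its copy hbbe1.3 had 0.996, 0.235 and 0.903 CPM in hm41 69, 70 and 71, against 0.647, 0.924 and 0.623 CPM in WT 66, 67 and 68. Here WT 67 was the highest WT library, and hm41 70 was low, with a log2 fold change of -0.072 (95% interval -0.97 to 0.83). The 3 beta copies summed had 5.01, 4.04 and 4.08 CPM in hm41 69, 70 and 71, against 4.77, 2.80 and 4.56 CPM in WT 66, 67 and 68. Their log2 fold change was 0.085 (95% interval -0.33 to 0.49, adjusted p = 0.923 by edgeR), with a value of -0.097 without WT 67.

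The chromosome 12 beta gene hbbe2 was the member with no overlap between the genotypes in TMM-scaled CPM. It had 61, 79 and 41 counts in hm41 69, 70 and 71, against 146, 50 and 176 in WT 66, 67 and 68. These were 1.56, 0.975 and 1.00 CPM in hm41 69, 70 and 71, against 1.60, 1.65 and 2.07 CPM in WT 66, 67 and 68. Every hm41 library lay below every WT library, hm41 69 by a small margin. Per unscaled library total the groups overlapped: hm41 69 had 61 of 33776039 counts and WT 67 had 50 of 35073549. The mean of hbbe2 was 1.18 ± 0.330 CPM in hm41 and 1.77 ± 0.258 CPM in WT (SD, n = 3 each). The log2 fold change of -0.62 ± 0.249 (SE, interval -1.13 to -0.096) did not pass the threshold (unadjusted p = 0.0225, adjusted p = 0.392 by edgeR). It stayed below 0 without each library in turn, from -0.85 without hm41 69 to -0.48 without hm41 70 or WT 68, with adjusted p-values of 0.233 to 0.689. Without WT 67 it was -0.66. The same lack of overlap with hm41 lower held for 8.44% of tested genes, and a lack of overlap in either direction for 16.5%. The last beta gene, hbbe3, of the same cluster, had 0 counts in every library, which over all 6 allows up to 0.147 counts per 1000000 outside the 8 rows (a floor of 3 counts, counting error only).

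**Figure D2:**
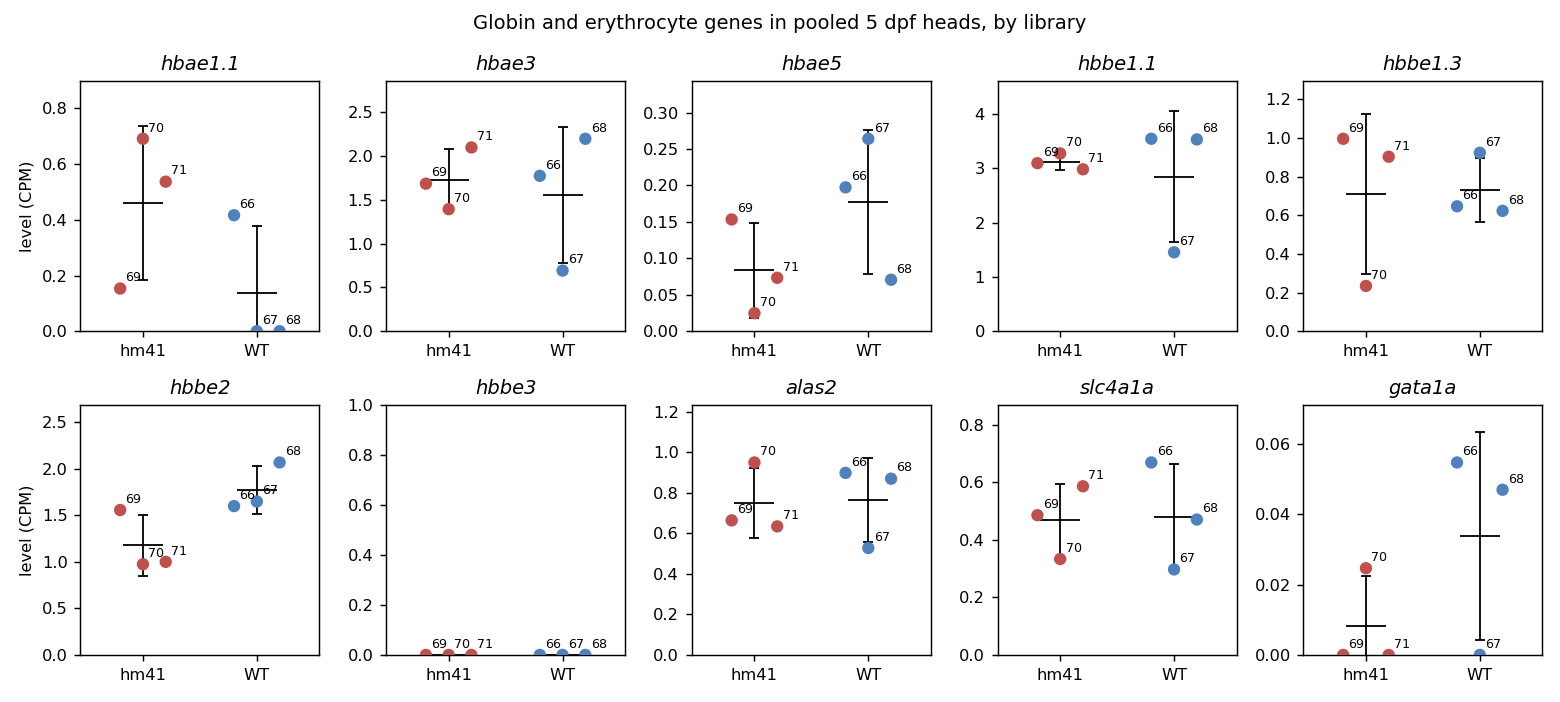
Level (CPM of TMM-scaled totals) of each of the 10 genes in the 6 libraries, numbered as in the labels, with the group mean and SD as bars. Among the tested genes hbbe2 alone has all hm41 libraries (0.975 to 1.56 CPM) below all WT libraries (1.60 to 2.07 CPM), and hbbe3 is at 0 throughout.

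The summed globin level had nearly equal group means. The spread was wider in WT than in hm41 over the member rows, but not over all globin rows. The 7 member globins summed to 7.64, 6.59 and 7.59 CPM in hm41 69, 70 and 71, against 8.18, 4.98 and 8.49 CPM in WT 66, 67 and 68. Group means were 7.27 ± 0.592 CPM in hm41 and 7.22 ± 1.94 CPM in WT (SD, n = 3 each), a ratio of 1.01. Without WT 67 the ratio was 0.873. With every globin row, copies included, the means were 10.3 ± 1.80 CPM in hm41 and 10.3 ± 1.80 CPM in WT, and the ratio was 1.00. That ratio over every globin row was 0.912 without WT 67. On the 2 sides of the LOC110438492 split the log2 ratio of these sums was -0.27 among hm41 70, hm41 71 and WT 68 and 0.33 among hm41 69, WT 66 and WT 67. Each ratio rests on 1 library of 1 genotype, WT 68 on the first side and hm41 69 on the other, and is a description only. No test was made of a sum over chosen genes.

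The make-up of the globin counts, looked at after their levels were seen, is described with no test. Genes of the chromosome 12 cluster held 14.0%, 11.5% and 10.8% of all globin counts in hm41 69, 70 and 71, against 16%, 23.4% and 19.1% in WT 66, 67 and 68. All hm41 shares lay below all WT shares. Nearly all of this came from hbbe2, with 10.1% to 12.7% in hm41 and 14.1% to 20.2% in WT. It is in large part the lack of overlap of hbbe2 seen again, which 8.44% of tested genes showed with hm41 lower, and no separate support. A share within a library does not depend on the scaling between libraries, but it does depend on the other globins. The chromosome 3 rows summed to 6.27 CPM in WT 67, against 9.54 and 9.09 CPM in WT 66 and WT 68 and 7.71 to 10.6 CPM in hm41. The chromosome 12 rows summed to 1.26 ± 0.391 CPM in hm41 and 1.96 ± 0.165 CPM in WT (SD, n = 3 each), and the chromosome 3 rows to 9.04 ± 1.43 CPM in hm41 and 8.30 ± 1.77 CPM in WT. Alpha counts per beta count, a ratio of counts not corrected for transcript length, were 0.868, 0.739 and 0.947 in hm41 69, 70 and 71, against 0.783, 0.837 and 0.693 in WT 66, 67 and 68, so the groups overlapped. Adult globins had no counts: hbaa1, hbaa2, ba1, ba1l, hbba2 and si:ch211-5k11.8 were listed at 0 in all 6 libraries, and hbz, a synonym of hbae4, had 2 counts, both in WT 66.

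**Figure D3:**
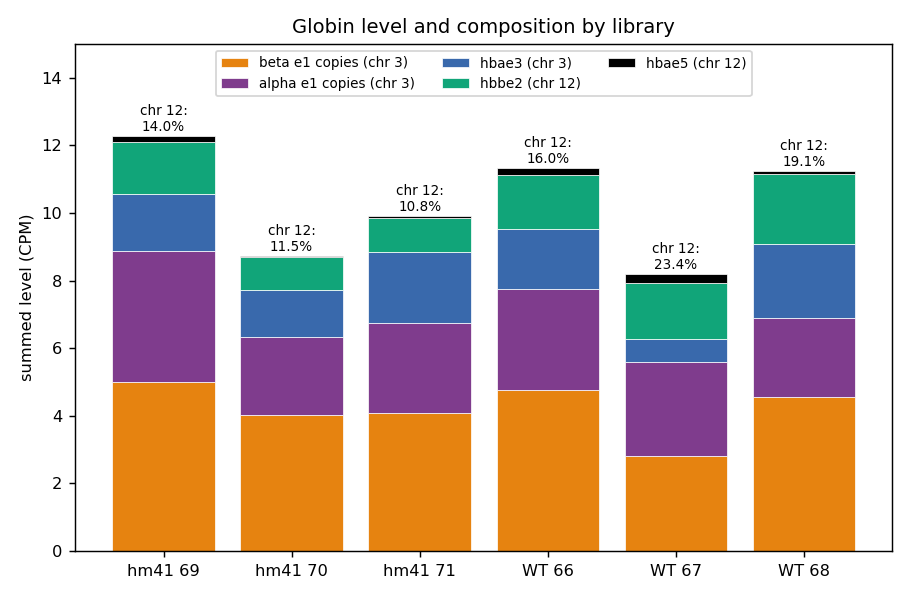
Summed level (CPM) of the globin rows per library, stacked by set of copies or gene, with the chromosome 12 share of globin counts above each bar. The share is 10.8% to 14.0% in hm41 and 16% to 23.4% in WT, while the bar heights of the groups overlap. The 2 counts of hbz in WT 66 enter its share but are not drawn.

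The 3 members outside the globins overlapped between the groups. Alas2, the first and rate-limiting enzyme of heme synthesis in red cells, whose loss in the zebrafish mutant sauternes causes anemia, had 0.664, 0.950 and 0.635 CPM in hm41 69, 70 and 71, against 0.899, 0.528 and 0.870 CPM in WT 66, 67 and 68. The highest and the lowest library were hm41 70 and WT 67, and the log2 fold change was -0.048 (interval -0.70 to 0.60, adjusted p = 0.973 by edgeR). Slc4a1a, the band 3 anion exchanger of the red cell membrane, had 0.485, 0.333 and 0.586 CPM in hm41 69, 70 and 71, against 0.669, 0.297 and 0.470 CPM in WT 66, 67 and 68. Its groups overlapped as well, with a log2 fold change of -0.12 (interval -0.94 to 0.70, adjusted p = 0.948 by edgeR). Gata1a, the erythroid transcription factor, had 2 counts in hm41, both in hm41 70, against 5 in WT 66, 0 in WT 67 and 4 in WT 68. The ratio of 2 to 9 counts, 0.285 after scaling, had a 95% interval of 0.0300 to 1.38, for counting error only. Per 100 globin counts there were 5.42, 10.9 and 6.39 alas2 counts in hm41 69, 70 and 71, against 7.92, 6.45 and 7.75 in WT 66, 67 and 68.

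Over the contrast as a whole, 0 of the 7 members that passed the low-count filter were called between hm41 and WT at an adjusted p under 0.05 by edgeR, where 0.0571% of all 19275 tested genes were called (11 genes). Of all tested genes 0.0156% were called higher and 0.0415% lower in hm41. The 3 that did not pass the filter were hbae5, hbbe3 and gata1a. At an unadjusted p under 0.05 there was 1 member, hbbe2, lower in hm41, against 5.05% of all tested genes in that direction, 5.35% in the other and 10.4% in either. The median log2 fold change of the 7 was -0.048, against -0.020 for all tested genes, and 4 of the 7 were below 0, as were 52.1% of all tested genes. DESeq2 gave an adjusted p to 2085 genes only and to none of the 7, and at its unadjusted p under 0.05 there was again 1, hbbe2. With the copies summed, edgeR called 0 as well. The intervals show what these pools could resolve: folds of hm41 over WT between 0.798 and 1.41 for the summed beta copies, between 0.793 and 1.47 for the summed alpha copies, between 0.668 and 1.65 for hbae3 and between 0.617 and 1.52 for alas2. Scaling by library totals alone called 32 higher and 15 lower genes and no member, and the log2 median over all genes was then 0.20. Under it hbbe2 had a value of -0.40 (unadjusted p = 0.216), hbae1.1 one of 1.90 (adjusted p = 0.146 by edgeR), and alas2 (0.18), slc4a1a (0.12) and hbbe1.3 (0.15) had positive values below that median.

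**Figure D4:**
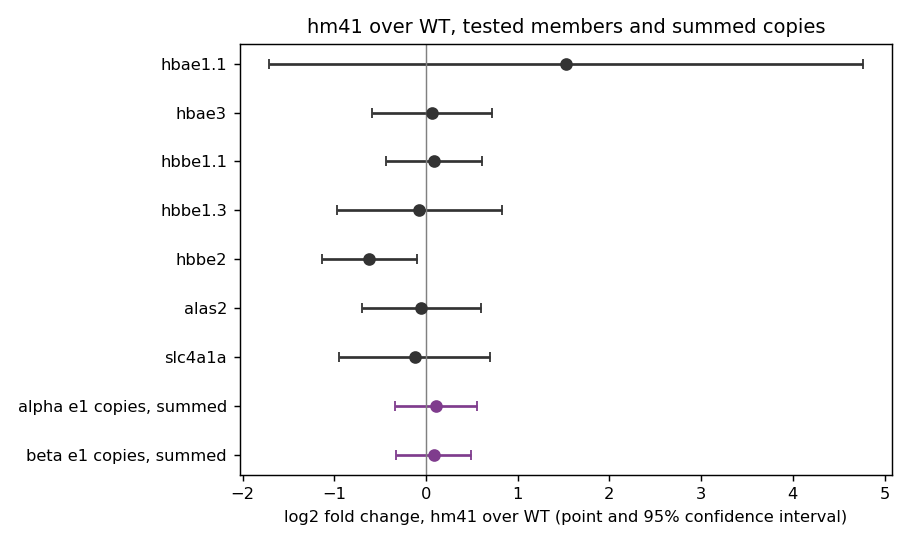
Log2 fold change of hm41 over WT with its 95% interval for the 7 tested genes (black) and the 2 summed sets of copies (purple). The interval of hbbe2 (-1.13 to -0.096) lies below 0, those of the others span it, and that of hbae1.1 is the widest (-1.71 to 4.76).

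Among the genes of heme synthesis, alas2 included, 15 of the 16 matched rows were tested and 0 were called by edgeR, with a median log2 fold change of 0.024. At an unadjusted p under 0.05, 2 were lower and 0 higher, against 5.05% and 5.35% of all tested genes. For this list and those that follow, the share called by edgeR over all tested genes is 0.0571%. The gene with the smallest p was alas1, the form of the enzyme that cells outside the erythroid line use. It had 6.57, 6.22 and 5.15 CPM in hm41 69, 70 and 71, against 11.83, 10.0 and 8.97 CPM in WT 66, 67 and 68. All hm41 libraries lay below all WT libraries, as for 8.44% of tested genes. The log2 fold change of alas1 was -0.78 ± 0.167 (SE, unadjusted p = 0.000152, adjusted p = 0.105 by edgeR). It passed the threshold with DESeq2 (-0.77, adjusted p = 0.00311), with no low-count filter (adjusted p = 0.0117, edgeR) and without WT 68 (-0.88, adjusted p = 0.0383, edgeR), but not with library totals alone (-0.52, adjusted p = 0.494, edgeR), and its adjusted p was between 0.0383 and 0.368 over the fits without 1 library. DESeq2 gave 14 of the 15 tested genes of this list no adjusted p. It adjusted over 2085 genes, of which it called 140. Ferrochelatase (fech), which inserts the iron, had values of 0.639, 1.25 and 1.32 CPM in hm41 69, 70 and 71, against 1.15, 2.21 and 1.96 CPM in WT 66, 67 and 68 (log2 fold change -0.68 ± 0.295, SE, adjusted p = 0.429 by edgeR). Alad, the second enzyme of the pathway, and the mitochondrial transporter abcb10 had log2 fold changes of -0.57 and -0.54. The summed level of the list was 17.4 to 18.1 CPM in hm41 and 21.9 to 23.8 CPM in WT. Without alas1 it was 11.5 to 12.2 CPM in hm41 and 11.9 to 12.9 CPM in WT, so the groups overlapped. This sum and those without apoa2 and csf1ra were added after seeing the data.

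Of 13 tested genes of iron handling, edgeR called 0, with a median of 0.059. At an unadjusted p under 0.05, 1 was higher and 0 lower, against 5.35% and 5.05% of all tested genes. That gene was the iron exporter ferroportin (slc40a1), with 3.81, 3.94 and 5.01 CPM in hm41 69, 70 and 71, against 3.05, 2.38 and 3.76 CPM in WT 66, 67 and 68 (log2 fold change 0.45 ± 0.194, SE, adjusted p = 0.429 by edgeR). The groups did not overlap, and 8.09% of tested genes showed that with hm41 higher. Glrx5 and iscu, of iron-sulfur cluster assembly, and the iron regulator ireb2 had values of -0.37, 0.22 and -0.23. Of 15 tested genes of the red cell membrane and its skeleton, 0 were called by edgeR, with a median of 0.12. At an unadjusted p under 0.05, 0 were higher and 1 lower, against the same 5.35% and 5.05% of all tested genes. The ankyrin gene ank1a had 6.23 ± 0.267 CPM in hm41 and 8.16 ± 0.791 CPM in WT (SD, n = 3 each; log2 fold change -0.38, adjusted p = 0.397 by edgeR). The blood group gene kel and the glycophorin gene gypc had values of -0.89 and 0.83, and beta-spectrin (sptb) one of 0.32. DESeq2 called 0 genes of the iron and membrane lists, where it gave 10 of 13 and 11 of 15 no adjusted p. At its unadjusted p under 0.05 there was 1 higher and 1 lower.

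Of 22 matched rows of erythroid transcription factors, 11 were tested. Many of the others were barely counted, such as lyl1 with 2 counts in hm41 and 5 in WT. Klf1, the erythroid Kruppel-like factor, had more but was not tested either, with 2, 6 and 11 counts in hm41 69, 70 and 71, against 19, 3 and 13 in WT 66, 67 and 68. Of the 11 tested, edgeR called 0, with a median of -0.16. At an unadjusted p under 0.05, 0 were higher and 2 lower, against 5.35% and 5.05% of all tested genes. DESeq2 called 0 but gave 10 of the 11 no adjusted p, with 0 higher and 1 lower at its unadjusted p under 0.05. The smallest p belonged to trim33, whose loss in the zebrafish mutant moonshine stops red cell formation, at -0.54 ± 0.220 (log2, SE; adjusted p = 0.391 by edgeR). Sox6, ldb1a and gata2a followed with -0.55, 0.27 and -0.46. Among 12 tested cytosolic enzymes of red cells, edgeR and DESeq2 called 0, but 9 of the 12 had no adjusted p from DESeq2. By both tools 0 had an unadjusted p under 0.05, against 10.4% of all tested genes by edgeR, and the median from edgeR was 0.16. Blvrb, tent5c and hk1 had values of 0.37, 0.28 and 0.18. Many genes of these lists are used by other tissues of the head as well.

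Other cells of the blood and vessels were described by marker lists. Of 7 thrombocyte markers 2 were tested, gp1bb (0.32) and thbs1b (0.10), and the defining itga2b had 2 counts in hm41 and 3 in WT. Mean levels were 19.0 CPM in hm41 and 17.7 CPM in WT for thbs1b and 2.44 and 2.01 CPM for gp1bb, against 0.00823 and 0.0112 CPM for itga2b. The part of other cells in the levels of gp1bb and thbs1b was not tested. Of 6 tested neutrophil markers edgeR called 0. At an unadjusted p under 0.05, 1 was higher and 0 lower, against 5.35% and 5.05% of all tested genes. That gene, npsn, had 15, 37 and 20 counts in hm41 69, 70 and 71, against 14, 2 and 29 in WT 66, 67 and 68. In CPM these were 0.383, 0.457 and 0.488 in hm41 against 0.153, 0.0660 and 0.341 in WT (log2 fold change 1.12 ± 0.50, SE, adjusted p = 0.447 by edgeR). The groups did not overlap in CPM, as for 8.09% of tested genes with hm41 higher. Lyz, srgn and mmp9 had values of 0.81, 0.56 and -0.36. Of 4 tested macrophage markers edgeR called csf1ra alone, lower in hm41, where it called 0.0415% of all tested genes lower. Csf1ra had a log2 fold change of -3.36 (adjusted p = 0.000171 by edgeR, with no adjusted p from DESeq2). The uncalled mpeg1.1, spi1b and coro1a had values of -0.55, -0.15 and 0.23. The progenitor markers myb and kita had values of -0.039 and 0.12, while the untested runx1 had 11 counts in hm41 and 3 in WT. The part of other cells in the kita level, on average 5.78 CPM in hm41 and 5.33 CPM in WT, was not tested. Of 9 tested endothelial markers edgeR called 0. At an unadjusted p under 0.05, 1 was higher and 1 lower, against the same 5.35% and 5.05% of all tested genes. The endothelial cadherin cdh5 and the tight junction gene cldn5b had values of 0.53 and 0.46, and egfl7 and the receptor gene tek values of -1.50 and -0.86. DESeq2 called 0 genes of these lists, most of which had no adjusted p from it, with 1 neutrophil marker higher, 1 endothelial and 1 macrophage marker lower at its unadjusted p under 0.05. The summed endothelial level was 8.23 to 10.5 CPM in hm41 and 7.75 to 10.0 CPM in WT. The summed neutrophil level was 3.70 to 4.81 CPM in hm41 and 2.84 to 4.85 CPM in WT, and the macrophage level 1.39 to 1.53 CPM in hm41 and 2.39 to 3.14 CPM in WT. Without csf1ra the macrophage level was 1.25 to 1.41 CPM in hm41 and 1.33 to 1.62 CPM in WT, so the groups overlapped. The part of vessels or of other blood cells in the globin levels was not tested.

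**Figure D5:**
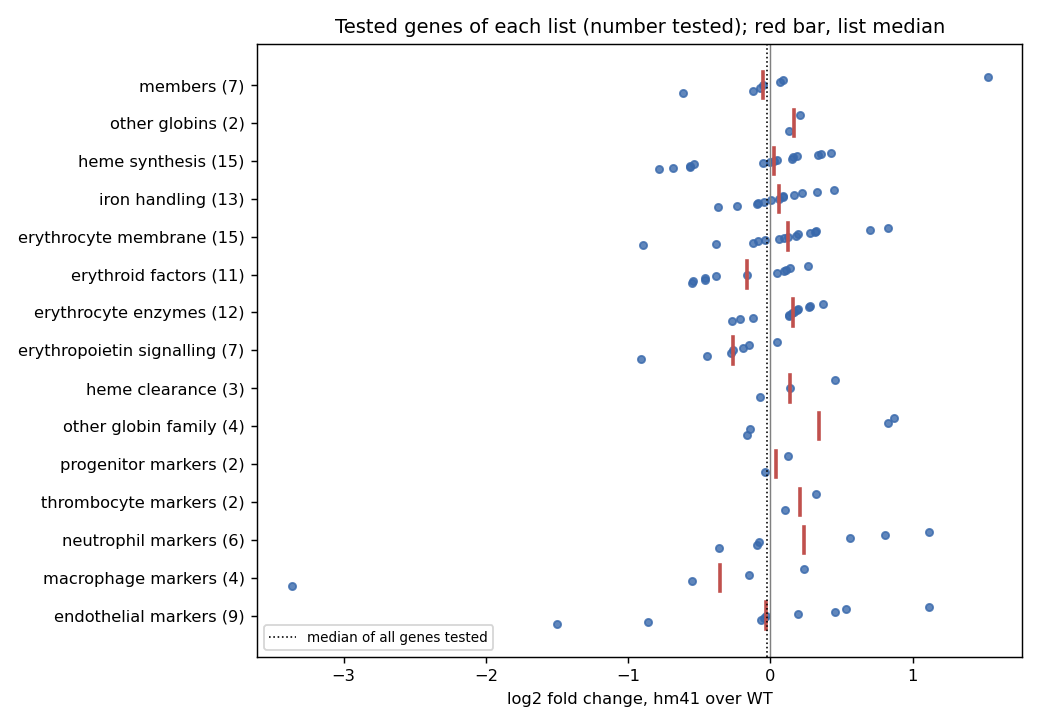
Log2 fold change of hm41 over WT for every tested gene of the blood-related lists, with the number tested and the list median as a red bar. List medians lie between -0.35 (macrophage markers) and 0.34 (other globin family), and the point at -3.36 is csf1ra.

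The genes most like the globins across the 6 libraries were ranked by Pearson's r with the mean centred log2 level of the 5 tested member globins. Candidates were 8461 tested genes of at least 1 CPM with an assigned symbol, hemoglobin rows left out. The first was cahz, the carbonic anhydrase gene of zebrafish red cells, with r = 0.987. It had 2.50, 2.54 and 2.78 CPM in hm41 69, 70 and 71, against 2.80, 1.95 and 2.22 CPM in WT 66, 67 and 68. The next were nos1apb (r = 0.980), stt3b (0.980), foxj3 (0.972), gmds (0.972), gng2 (0.972), mbd5 (0.970) and sobpb (0.964). The mean profile was mostly that of hbae1.1 (r = 0.907), whose share of the copies varied, while hbbe2 went against it (r = -0.52). With the copies summed first, an alternative chosen after seeing the data, the first genes were rhogc, taf3 and cct3 (r = 0.991, 0.988 and 0.978), and cahz was number 2098 with r = 0.417. With so few libraries, which share depth and scaling, such rankings are a description. The place of cahz differed between these profiles, which differed both in the division of shared reads and in the rows included. The cause of that difference was not tested.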

How the data were processed

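The authors deposited expected counts, estimated reads per gene and library, in 1 table, with columns named as gene estimates. The submitters' processing notes list TopHat, Bowtie2, RSEM and GRCz11 without roles or versions, and annotation release and strand setting were not stated. Per library 17.8% to 23.2% of values were not whole. Counts were rounded and tested with edgeR 4.0.16 in R 4.3.3 (quasi-likelihood F-test with robust estimation, TMM, filterByExpr with its minimum count of 10, no covariate), with two-sided p-values adjusted by the Benjamini-Hochberg method over all 19275 genes tested at a threshold of 0.05. DESeq2 1.42.0, other scalings, no filter, a term for the LOC110438492 split and fits without each library were alternatives. Summing near-identical copies was added after seeing the data.

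The members and lists were chosen with earlier results of these data known. Of 182 symbols 173 matched a row, 15 of them through synonyms in the RefSeq table of GRCz12tu, used for names and chromosomes only. All members are named, with up to 4 genes of smallest p per list, any called gene, and the 8 genes most like the globins, over the 5 globins tested in place of the planned 7. One gene that this rule names is not reported here. Names of other untested rows were chosen after their values were seen. The edgeR step was checked on simulated counts. Intervals on counts are exact (Poisson, or Clopper-Pearson for ratios) and cover counting error only, and no molecular identifiers are stated. No sequence was at hand to print.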

Additional observations from a re-analysis of the deposited data

How the results depend on the processing

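The count of genes called, 11, became 47 with library totals alone, 131 with no low-count filter, 19 with a term for the LOC110438492 split and 140 with DESeq2, and was between 6 and 44 without 1 library (6 without hm41 70, 20 without hm41 69, 44 without WT 68). The count of members called was 0 under every alternative (with DESeq2 because none had an adjusted p) except the fit without WT 66, where it was 1 (hbae1.1), so that leaving out 1 library gave 0 to 1. Of 113 alternative values for single members and summed copies, 84 kept their direction and side of the threshold, 7 (DESeq2) kept their direction with no adjusted p given, 1 passed the threshold and 21 changed sign. With library totals alone hbbe1.3, alas2 and slc4a1a were at 0.15, 0.18 and 0.12. With the split term hbae3 was at -0.036 and hbbe1.3 at 0.071, and with copies summed hbbe1.3 became the value of its set, 0.085. Without 1 library the log2 fold change lay between -0.22 and 0.37 for hbae3, -0.18 and 0.27 for hbbe1.1, -0.42 and 0.41 for hbbe1.3, -0.28 and 0.078 for alas2, -0.32 and 0.21 for slc4a1a, 0.88 and 7.72 for hbae1.1, -0.13 and 0.27 for the alpha copies and -0.097 and 0.22 for the beta copies. For hbbe2 every alternative stayed below 0, and those with an adjusted p stayed short of the threshold. The log2 ratio of the summed globins, 0.011, was between -0.20 and 0.14 without 1 library and between -0.0055 and 0.21 under the other denominators and rows. Apart from stated constructions (fewer libraries, more rows), the cause of these changes was not tested. Without hm41 69 or WT 67 no erythroid list gained a called gene. Without WT 68 alas1 of the heme synthesis list was called (adjusted p = 0.0383, edgeR), and without WT 66 hbae1.1 was, as given above. Gata1a, hbae5 and hbbe3, with at most 18 counts in any library, did not pass the low-count filter in the fit of all 6 libraries. The part of depth in these low counts was not tested. No paired analysis was possible because the groups share no replicate number.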

Other observations

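Neuroglobin (ngb), the globin of neurons and retina, had 1.99, 2.97 and 2.86 CPM in hm41 69, 70 and 71, against 1.39, 1.55 and 1.40 CPM in WT 66, 67 and 68. All hm41 libraries lay above all WT libraries, as for 8.09% of tested genes. The log2 fold change of 0.87 ± 0.217 (SE, unadjusted p = 0.000739) did not pass the threshold (adjusted p = 0.157 by edgeR). With no low-count filter it did (adjusted p = 0.0429, edgeR), and its adjusted p was 0.0821 with library totals alone and between 0.0849 and 0.460 without 1 library. The 10 markers of neurons and other head tissues had log2 fold changes of 0.057 (rho) to 1.83 (cryaa) with a median of 0.25. Of these markers 4, all above 0, had an unadjusted p under 0.05, against 5.35% of all tested genes in that direction. Their part in the ngb value was not tested. The cytoglobin genes cygb1 and cygb2 had log2 fold changes of -0.14 and 0.83, cygb2 with a listed 0 in WT 67, and the muscle globin mb one of -0.16.

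In erythropoietin signalling 0 of 7 tested genes were called by edgeR, with 0 higher and 1 lower at an unadjusted p under 0.05, also with DESeq2, which gave none of them an adjusted p. The gene was stat5a, a transcription factor downstream of cytokine receptors, with 0.869, 0.667 and 1.03 CPM in hm41 69, 70 and 71, against 1.51, 1.48 and 1.72 CPM in WT 66, 67 and 68 (log2 fold change -0.91 ± 0.254, SE, adjusted p = 0.200 by edgeR). Its paralog stat5b, the kinase gene jak2a and the ligand gene epob had values of -0.26, -0.28 and -0.45. The receptor gene epor had 8, 6 and 6 counts in hm41 69, 70 and 71, against 2, 3 and 10 in WT 66, 67 and 68, too few to test. Of the genes that clear free hemoglobin and heme, haptoglobin (hp) had 0 counts in all libraries, and the heme oxygenase gene hmox1a had a log2 fold change of 0.14 with a listed 0 in WT 67. The heme transporter gene slc48a1b had 0.689 ± 0.0498 CPM in hm41 and 0.499 ± 0.0291 CPM in WT (SD, n = 3 each, adjusted p = 0.667 by edgeR). Its groups did not overlap, as for 8.09% of tested genes with hm41 higher.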
